A study of Mus musculus with 8 samples.

Results

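Amino acid catabolism enzymes break down surplus amino acids in the liver. The set described here was given as a list of 39 genes in 4 pathway groups, namely aromatic, branched chain, glycine and sulfur, and a smaller group for lysine, proline, histidine and aspartate. Of these 39 genes, 36 had at least 1 probe set annotated with their symbol alone and were tested among 17790 genes, and their 59 probe sets all passed the filter on low signal. Acmsd, Amt and Sds had no such probe set in the annotation used and were not analysed here. The groups held 8 of 9 aromatic, 13 of 13 branched chain, 10 of 12 glycine and sulfur, and 5 of 5 remaining listed genes.

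Whole liver RNA from 8-week-old BALB/c mice was hybridised to 8 Affymetrix mouse arrays, in 4 groups of 2 arrays, each array holding RNA pooled from 3 mice. Every mouse carried a recombinant adenovirus (rAd.), which transduced 30 to 40% of hepatocytes, and had a 78% liver resection 5 days after its injection. Pre-βgal and post-βgal were livers given rAd.βgal, the control virus for β-galactosidase, and pre-A20 and post-A20 were livers given rAd.A20, which carries human A20, an inhibitor of NF-κB signalling encoded by TNFAIP3. "Pre" samples were the resected lobes and "post" samples the remnant liver 24 h later. No group was without virus, and the probe sets used do not read the human transgene. For post-A20, the treatment field names the βgal virus, but the titles, source and description name A20 and were followed. Because each array is a pool and the labels do not say which pools share mice, the p-values measure the spread between pools.

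By way of background, hepatocytes pass amino groups to urea and carbon skeletons to glucose, ketone bodies or the citric acid cycle. Tyrosine and tryptophan are degraded mainly in liver, through Tat and Tdo2, classic targets of glucocorticoid hormones. Branched chain amino acids are oxidised in mitochondria by a dehydrogenase complex whose product is a series of acyl-CoA esters. Glycine, serine, choline and methionine meet in the one-carbon and transsulfuration routes, which supply methyl groups, cysteine and glutathione.

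In the deposited signals the enzymes were lowest in post-βgal. Each enzyme was expressed relative to its own mean over the 8 arrays, on the log2 scale, and the median over the 36 enzymes was then taken in each array. That median was 0.11 and 0.09 in the pre-βgal arrays, -0.34 and -0.54 in post-βgal, 0.27 and 0.37 in pre-A20, and 0.10 and 0.21 in post-A20. Both post-βgal arrays lay below every other array, and the 2 pre-A20 arrays were the highest. In the heat map of the enzymes, aspartate aminotransferase Got1, Tat and Aass departed from this order, with high signals after resection.

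**Figure D1:**
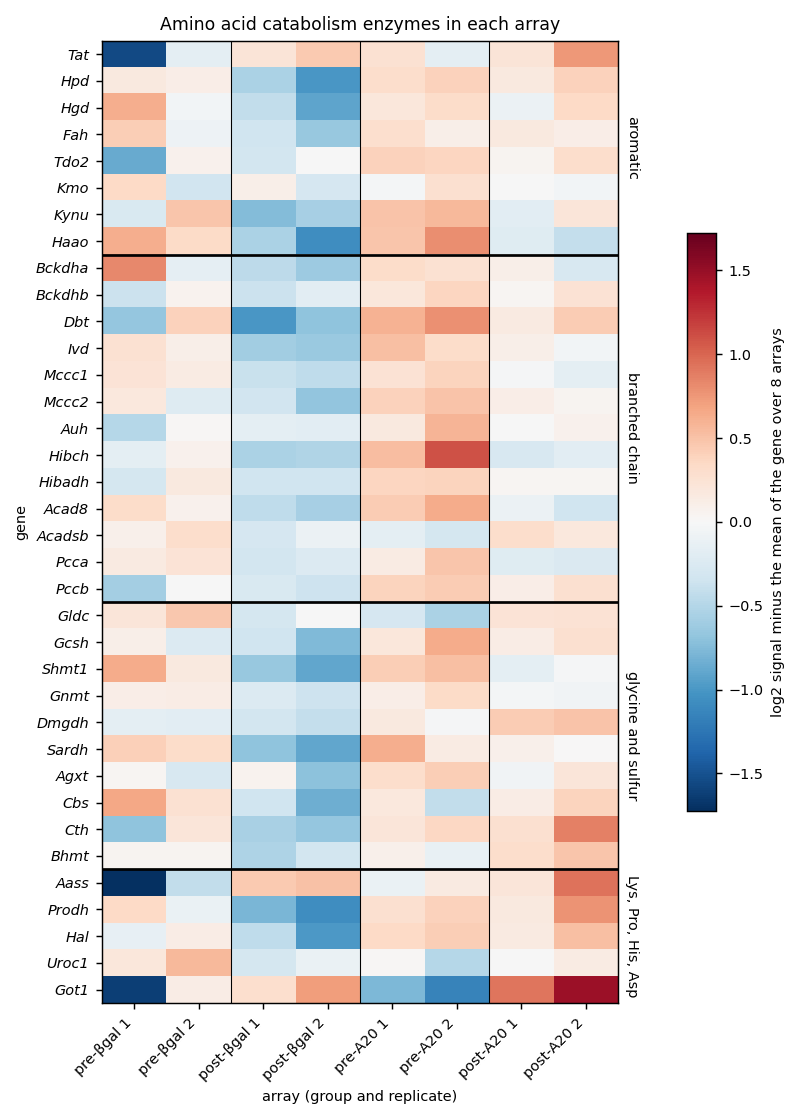
Heat map of the 36 tested enzymes (rows, by pathway) in the 8 arrays (columns, by group and replicate), as log2 signal minus the mean of that gene over the 8 arrays. The post-βgal columns are mostly blue, with medians of -0.34 and -0.54, and the first pre-βgal array stands apart for Tat, Aass and Got1.

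RNA quality was uneven over the arrays. The Actb control probe sets gave a 3′/5′ ratio, a measure that is high in degraded RNA, of 6.997 in the first pre-βgal array and 3.64 in the first post-βgal array, against 1.27 to 1.62 in the remaining 6. In pre-βgal, 4 enzymes (Tat, Got1, Aass and Dbt) differed by over 1 log2 unit between the replicates, against 0 in each other group. The median difference between replicates over the enzymes was 0.40 log2 units in pre-βgal and 0.22, 0.18 and 0.17 in post-βgal, pre-A20 and post-A20. With the log2 Actb ratio as a covariate in the model described below, the enzymes called were 3 and 13 for A20 against βgal before and after resection, and 21 and 5 for resection in βgal and in A20 livers, beside 7.31%, 4.64%, 15% and 6.67% of all genes. Without replicate 1 of both βgal groups they were 0, 1, 1 and 3, beside 0.624%, 0.545%, 0.899% and 3.37% of all genes.

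Markers of other cell types were followed in the same arrays. Of the 4 hepatocyte markers tested (of 6 listed), the summed signal ran from 62892 to 71692 over the arrays. The summed signal of the 3 tested neutrophil markers (S100a8, S100a9 and Csf3r) was 2305 and 1458 in pre-βgal, 3566 and 4239 in post-βgal, 411 and 469 in pre-A20, and 1013 and 748 in post-A20. All 3 fell with A20 in the average over both times, beside 5.2% of all genes called lower. None of these markers was listed at 0. The neutrophil signal was thus highest in post-βgal, where the enzymes were lowest. The summed signal of 6 Kupffer cell and macrophage markers was 6236 and 5658 in pre-βgal, 4035 and 5070 in post-βgal, 3580 and 3375 in pre-A20, and 5516 and 5118 in post-A20. That of 2 erythroid markers (of 3 listed) was 2385 and 1989, 1934 and 1060, 4162 and 4121, and 1742 and 1664 in the same order. In pre-A20, where the enzymes were highest, the summed macrophage signal was lowest and the summed erythroid signal highest. The single macrophage markers did not move alike, with pre-A20 minus pre-βgal differences from -1.09 to 0.51 and 1 of 6 above 0. Summed signals of sinusoidal endothelium (2953 and 3055) and stellate cell markers (5040 and 5093) were also highest in pre-A20. So were those of periportal (33008 and 29958) and perivenous hepatocyte markers (33087 and 32648). Hal, one of the 36 enzymes, is in the periportal sum. The single markers of these lists did not all move alike. Their pre-A20 minus pre-βgal differences were above 0 for 2 of 5 sinusoidal endothelium and 4 of 5 stellate cell markers. The same held for 3 of 6 periportal and 5 of 8 perivenous markers. The part of these cell types in the enzyme results was not tested. In whole liver, fewer cells of a type and less RNA per cell cannot be told apart.

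The question of the 4 two-group comparisons is how resection changed these enzymes with either virus, and how A20 changed them before and after resection. A gene is said to have risen or fallen where limma's moderated test gave a Benjamini-Hochberg adjusted p under 0.05 over all 17790 genes. Differences are log2 ratios of signal after an offset of 16, given with their standard errors, with 2 arrays in each group. With the variances moderated over all kept probe sets instead of over genes, the enzymes called were 0 and 0 for A20 against βgal before and after resection, and 4 and 0 for resection in βgal and in A20 livers, beside 2.5%, 0.332%, 2.25% and 1.01% of all genes. Replicate numbers were not used as a block. Among the 36 enzymes, each call but the average fall of Haao with resection was lost when at least 1 of the 8 arrays was left out. Such a fit leaves 1 array in a group, and the share of all genes called changed too. Named genes outside the 36 were not followed one by one through these fits.

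After resection, the 36 enzymes were all higher in post-A20 than in post-βgal, against 54.6% of all genes, with a median difference of 0.50 against 0.03 over all genes. The arrays did not overlap, all higher in A20, for 31 of the 36, against 33.7% of all genes. The test was passed by 4 enzymes, all higher (Hpd, Dmgdh, Bhmt and Prodh), while 0.512% of all genes were called higher and 0.905% lower. With 1 array left out, the 4 differences stayed above 0. They ran from 0.83 to 1.28 (Hpd), 0.78 to 0.88 (Dmgdh), 0.70 to 0.92 (Bhmt) and 1.10 to 1.70 (Prodh). Each of the 4 calls was lost in most of these fits. Fitting only the 4 arrays compared gave 13 enzymes, beside 6.28% of all genes.

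Before resection, 28 of 36 enzymes were higher in pre-A20 than in pre-βgal, against 44.9% of all genes, with a median difference of 0.23 against -0.03. The arrays did not overlap for 19 enzymes higher in A20 and 4 lower, against 22.1% and 29.3% of all genes. A single enzyme, Hibch, rose, beside 1.31% of all genes called higher and 3.32% called lower. A fit of only the 4 arrays compared called 0 enzymes, beside 1.64% of all genes. With 1 array left out, the Hibch difference ran from 0.58 to 1.14, and its call was lost in most of these fits.

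Resection in βgal livers left 31 of 36 enzymes lower, with a median difference of -0.48 against -0.05 over all genes, of which 42.5% were above 0. Exceptions above 0 were Tat, Tdo2, Auh, Aass and Got1. The other probe sets of Tdo2 lay below 0, at -0.67 and -0.34. The arrays did not overlap for 26 enzymes lower after resection and 3 higher, against 33% and 20.4% of all genes. The 5 that fell were Hpd, Haao, Ivd, Shmt1 and Sardh, beside 1.51% of all genes called lower and 2.48% called higher. With 1 array left out, the 5 falls ran from -1.55 (Haao) to -0.69 (Hpd). Each of the 5 calls was lost in at least 1 of these fits, and that of Ivd in most of them. Fitting only the 4 arrays compared ended all 5 calls, with 0.438% of all genes called.

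Resection in A20 livers left 25 of 36 enzymes lower, with a median difference of -0.21 against 0.02 over all genes, of which 54.4% were above 0. The arrays did not overlap for 18 enzymes lower and 6 higher, against 22.3% and 29.4% of all genes. Hibch fell, beside 0.793% of all genes called lower and 1.22% called higher. With 1 array left out, the Hibch difference ran from -1.33 to -0.76, and its call was lost in most of these fits. The count was 3 in a fit of only the 4 arrays compared, beside 3.34% of all genes. The comparisons share arrays, as pre-βgal and post-βgal each enter both a resection and an A20 comparison, so their values are given side by side and are not independent.

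**Figure D2:**
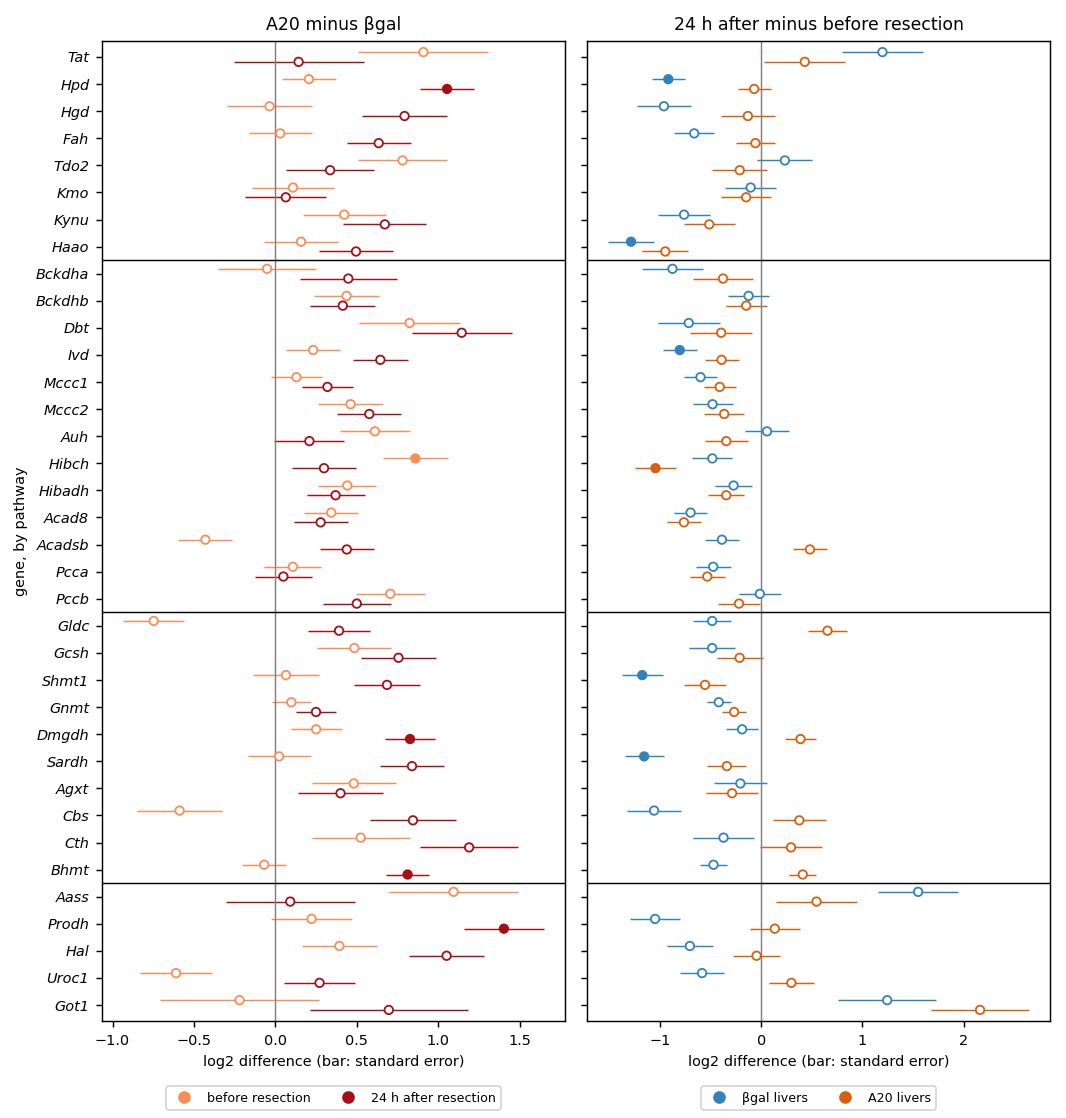
Log2 difference (x axis) of each of the 36 enzymes (y axis, by pathway), with A20 minus βgal on the left and 24 h after minus before resection on the right; points are estimates, bars standard errors and filled points those called at an adjusted p under 0.05. All 36 dark red points on the left (after resection) lie above 0, and most of the blue points on the right (βgal livers) lie below 0.

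In the aromatic group, the signals of Hpd, Hgd and Fah, enzymes of tyrosine breakdown, were lowest in post-βgal, and that of Tat was not. Tat, tyrosine aminotransferase, takes the first step. It gave signals of 1766 and 4672 in pre-βgal, 6084 and 7186 in post-βgal, 6266 and 4677 in pre-A20, and 6086 and 8760 in post-A20. The pre-βgal arrays were lower than the post-βgal arrays but lay far apart from each other, and no Tat comparison passed the test, with a resection difference of 1.20 ± 0.40 in βgal livers (adjusted p = 0.123).

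Hpd, 4-hydroxyphenylpyruvate dioxygenase, takes the second step and makes homogentisate. Its signals were 9603 and 9212 in pre-βgal, 5809 and 4258 in post-βgal, 10509 and 11213 in pre-A20, and 9559 and 11203 in post-A20. The post-βgal arrays lay below all 6 others. Hpd fell by 0.92 on the log2 scale with resection in βgal livers (SE 0.16, adjusted p = 0.0253), and differed by -0.07 ± 0.16 in A20 livers (adjusted p = 0.879). After resection it was higher in A20 livers by 1.05 ± 0.16, or 2.08-fold (adjusted p = 0.0336).

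The next enzymes of the tyrosine route were also lowest in post-βgal, without passing the test. Hgd, homogentisate dioxygenase, ran from 2211 to 3106 in post-βgal and from 3908 to 6441 in the other groups. Fah, fumarylacetoacetate hydrolase, whose loss causes hereditary tyrosinaemia, ran from 3434 to 4261 in post-βgal and from 5077 to 7232 elsewhere. Their resection differences in βgal livers were -0.96 ± 0.26 (adjusted p = 0.081) and -0.66 ± 0.20 (adjusted p = 0.0952).

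On the tryptophan side, the clearest resection difference was at Haao, 3-hydroxyanthranilate dioxygenase, which makes the precursor of quinolinate and hence of NAD. Its signals were 4527 and 3674 in pre-βgal, 2004 and 1382 in post-βgal, 4062 and 5101 in pre-A20, and 2533 and 2186 in post-A20. Both virus groups were lower after resection with no overlap. Haao fell by 1.28 in βgal livers (SE 0.23, adjusted p = 0.0239), and its difference in A20 livers was -0.95 ± 0.23 (adjusted p = 0.0766). Averaged over both viruses it fell by 1.12 (SE 0.16, adjusted p = 0.00637), and this average stayed past the threshold in all 21 alternatives run, each of the 8 arrays left out in turn included.

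Tdo2, tryptophan 2,3-dioxygenase, opens the kynurenine route. The probe set standing for it gave 3709 and 7123 in pre-βgal, 5447 and 6711 in post-βgal, 8922 and 8778 in pre-A20, and 6990 and 8346 in post-A20. It passed no test, and its average resection difference was 0.01 ± 0.19. The other 2 Tdo2 probe sets fell with resection on average, by 0.76 (adjusted p = 0.0255) and 0.54 (adjusted p = 0.0487) in the fit of all probe sets. In βgal livers the probe sets differed in sign, with 0.23 for the one standing for Tdo2 and -0.67 and -0.34 for the others. The size and sign of the difference thus depend on the probe set. Kynu, kynureninase, had a resection difference of -0.76 ± 0.25 in βgal livers (adjusted p = 0.123), and Kmo, kynurenine 3-monooxygenase, one of -0.10 ± 0.25 (adjusted p = 0.829).

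Promoters are shown for the 3 enzymes with the smallest adjusted p in the average over resection (Haao, Acad8 and Shmt1), all of which fell. They are RefSeq sequences of build GRCm38.p6, from 250 bases before to 50 bases after the annotated start, 5′ to 3′ on the gene's strand, and all 3 genes lie on the minus strand. The capitals mark the hexamer TGTTCT, the reverse complement of the glucocorticoid receptor hexamer AGAACA.
Haao, chr17:83846741-83847040: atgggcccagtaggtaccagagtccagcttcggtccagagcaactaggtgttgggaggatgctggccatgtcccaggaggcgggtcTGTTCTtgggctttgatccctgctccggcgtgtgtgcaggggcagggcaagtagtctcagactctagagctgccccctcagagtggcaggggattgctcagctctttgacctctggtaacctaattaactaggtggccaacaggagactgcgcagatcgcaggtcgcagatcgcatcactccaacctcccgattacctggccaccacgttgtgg
Acad8, chr9:26999500-26999799: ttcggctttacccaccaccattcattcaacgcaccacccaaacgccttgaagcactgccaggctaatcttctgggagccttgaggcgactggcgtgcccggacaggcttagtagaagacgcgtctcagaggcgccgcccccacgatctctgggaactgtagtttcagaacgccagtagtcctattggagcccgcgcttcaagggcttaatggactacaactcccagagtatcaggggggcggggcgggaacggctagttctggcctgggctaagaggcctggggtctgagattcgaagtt
Shmt1, chr11:60811216-60811515: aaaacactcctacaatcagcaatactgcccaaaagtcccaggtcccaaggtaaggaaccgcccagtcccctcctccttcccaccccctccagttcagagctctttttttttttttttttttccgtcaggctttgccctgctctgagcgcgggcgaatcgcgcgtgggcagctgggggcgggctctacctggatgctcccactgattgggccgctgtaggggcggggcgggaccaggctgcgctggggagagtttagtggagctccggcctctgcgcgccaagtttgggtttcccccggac
The Haao hexamer lies 164 bases before the start. Of the 36 tested genes, 33 matched the promoter table, with 35 promoters. AGAACA, searched on both strands, was in 5 of them (14.3%; Kmo, Haao, Bckdhb, Pccb and Agxt), against 19.0% of all 32851 promoters of that length. The C/EBP motif TTGCNNAA was in 4 (11.4%; Hgd, Acadsb, Aass and Hal), against 10.8%. The HNF1 motif, the HNF4 motif CAAAGTCCA and the cyclic AMP element TGACGTCA were in 0 of the 35, against 0.00913%, 0.475% and 1.79% of all promoters. Both counts above 0 were near the background of all promoters.

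In the branched chain group, 12 of 13 enzymes were lower after resection in βgal livers and 12 of 13 in A20 livers, with medians of -0.48 and -0.38. The first committed enzyme is the branched chain keto acid dehydrogenase, and its E1 alpha subunit is Bckdha. Bckdha signals were 3387 and 1708 in pre-βgal, 1388 and 1225 in post-βgal, 2362 and 2283 in pre-A20, and 2037 and 1565 in post-A20. With both viruses the arrays after resection lay below those before it, but the test was not passed, at -0.88 ± 0.30 in βgal livers (adjusted p = 0.129).

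Dbt is the E2 core subunit of that complex. It gave 316 and 677 in pre-βgal, 247 and 309 in post-βgal, 782 and 890 in pre-A20, and 569 and 699 in post-A20. At each time both A20 arrays lay above both βgal arrays. In the average over both times Dbt was higher with A20 by 0.98 ± 0.22, or 1.98-fold (adjusted p = 0.0328), while neither time alone passed the test. Its pre-βgal arrays differed by over 1 log2 unit. Bckdhb, the E1 beta subunit, was higher with A20 by an average of 0.43 ± 0.14 (adjusted p = 0.0965).

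On the leucine branch, Ivd, isovaleryl-CoA dehydrogenase, gave 1472 and 1312 in pre-βgal, 801 and 777 in post-βgal, 1751 and 1527 in pre-A20, and 1310 and 1180 in post-A20. Ivd fell by 0.80 with resection in βgal livers (SE 0.17, adjusted p = 0.0396) and by 0.60 on average over both viruses (SE 0.12, adjusted p = 0.0222). Its second probe set had an average of -0.32, not called in the fit of all probe sets (adjusted p = 0.137). The post-βgal arrays lay closer to each other than to any other array.

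Mccc1, the biotin-bearing subunit of methylcrotonyl-CoA carboxylase, gave 1164 and 1086 in pre-βgal, 751 and 723 in post-βgal, 1180 and 1287 in pre-A20, and 975 and 876 in post-A20. Its average fell by 0.50 with resection (SE 0.11, adjusted p = 0.0353), but its second probe set gave a difference of the opposite sign, 0.54, and the mean of both gave 0.02. Its partner subunit Mccc2 had an average resection difference of -0.42 ± 0.14 (adjusted p = 0.121).

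On the valine branch, Hibch, 3-hydroxyisobutyryl-CoA hydrolase, had its highest signals in pre-A20. It gave 437 and 521 in pre-βgal, 335 and 339 in post-βgal, 719 and 1074 in pre-A20, and 405 and 432 in post-A20. Both pre-A20 arrays exceeded all 6 others. Hibch was higher with A20 before resection by 0.86 ± 0.20, or 1.82-fold (adjusted p = 0.0477), and fell by 1.04 with resection in A20 livers (SE 0.20, adjusted p = 0.0411). After resection its A20 difference was 0.30 ± 0.20 (adjusted p = 0.403).

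Acad8, isobutyryl-CoA dehydrogenase, gave 690 and 579 in pre-βgal, 404 and 365 in post-βgal, 752 and 866 in pre-A20, and 511 and 431 in post-A20. Both viruses had lower signals after resection with no overlap. Acad8 fell by 0.73 on average (SE 0.12, adjusted p = 0.00975), a value that was -0.21 in its dimmer second probe set. Hibadh, the next valine enzyme, had an average resection difference of -0.31 ± 0.13 (adjusted p = 0.195).

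Acadsb, short/branched chain acyl-CoA dehydrogenase of the isoleucine branch, was the exception within this group. It gave 2916 and 3398 in pre-βgal, 2254 and 2561 in post-βgal, 2438 and 2231 in pre-A20, and 3416 and 3116 in post-A20. Resection differences were -0.39 ± 0.17 in βgal livers and 0.48 ± 0.17 in A20 livers, neither past the test, and their difference of 0.87 ± 0.23 had an adjusted p of 0.167.

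Propionyl-CoA carboxylase joins the isoleucine and valine branches. Its subunit Pccb gave 928 and 1387 in pre-βgal, 1161 and 1089 in post-βgal, 1833 and 1891 in pre-A20, and 1513 and 1687 in post-A20. All 4 A20 arrays exceeded all 4 βgal arrays, and the average was higher with A20 by 0.60 ± 0.15 (adjusted p = 0.0437). The partner subunit Pcca had an average A20 difference of 0.08 ± 0.12 (adjusted p = 0.711) and an average resection difference of -0.50 ± 0.12 (adjusted p = 0.0503).

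In the glycine and sulfur group, all 10 enzymes were lower after resection in βgal livers (median -0.48), while 5 of 10 were above 0 in A20 livers (median 0.04). After resection all 10 were higher with A20, by a median of 0.78. Gldc, the glycine decarboxylase that starts the glycine cleavage system, gave 2204 and 2634 in pre-βgal, 1547 and 1908 in post-βgal, 1564 and 1306 in pre-A20, and 2244 and 2273 in post-A20. The A20 groups were thus in the opposite order to the βgal groups. No Gldc comparison passed the test, with differences of -0.48 ± 0.19 for resection in βgal livers (adjusted p = 0.168) and 0.65 ± 0.19 in A20 livers (adjusted p = 0.127).

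Gcsh, the lipoyl carrier protein of the same system, gave 2514 and 1998 in pre-βgal, 1852 and 1378 in post-βgal, 2683 and 3685 in pre-A20, and 2573 and 2855 in post-A20. Its average A20 difference of 0.62 ± 0.16 was at the edge of the threshold (adjusted p = 0.049986). Shmt1, the cytosolic serine hydroxymethyltransferase, gave 2297 and 1655 in pre-βgal, 934 and 782 in post-βgal, 1974 and 2111 in pre-A20, and 1314 and 1460 in post-A20. Shmt1 fell by 1.17 with resection in βgal livers (SE 0.20, adjusted p = 0.0235) and by 0.86 on average (SE 0.14, adjusted p = 0.0111). Its 4 probe sets all had negative average resection differences, from -0.86 to -0.47. In the fit of all probe sets, 1 of them was called in βgal livers and 2 on average.

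Dimethylglycine and sarcosine dehydrogenases are consecutive mitochondrial steps from choline to glycine. Dmgdh gave 2084 and 2079 in pre-βgal, 1891 and 1761 in post-βgal, 2640 and 2330 in pre-A20, and 3181 and 3322 in post-A20. It was higher with A20 after resection by 0.83 ± 0.16, or 1.77-fold (adjusted p = 0.047). Sardh gave 3839 and 3617 in pre-βgal, 1792 and 1545 in post-βgal, 4481 and 3200 in pre-A20, and 3067 and 2916 in post-A20. Sardh fell by 1.16 with resection in βgal livers (SE 0.19, adjusted p = 0.0207), and its A20 difference after resection was 0.84 ± 0.19 (adjusted p = 0.0767). The second Sardh probe set gave -0.75 for resection in βgal livers, not called in the fit of all probe sets (adjusted p = 0.0819).

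Bhmt, which remethylates homocysteine with betaine and so feeds the same choline route, gave 10198 and 10170 in pre-βgal, 6801 and 7931 in post-βgal, 10445 and 9029 in pre-A20, and 12147 and 13724 in post-A20. The post-A20 arrays were the highest and the post-βgal arrays the lowest. Bhmt was higher with A20 after resection by 0.81 ± 0.13, or 1.76-fold (adjusted p = 0.0361). Gnmt, which disposes of surplus methyl groups by making sarcosine, had resection differences of -0.42 ± 0.12 in βgal livers (adjusted p = 0.0895) and -0.27 ± 0.12 in A20 livers (adjusted p = 0.31).

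Cbs and Cth carry out the transsulfuration of homocysteine to cysteine. Cbs gave 4790 and 3648 in pre-βgal, 2384 and 1678 in post-βgal, 3429 and 2246 in pre-A20, and 3305 and 3937 in post-A20. Its resection differences were -1.06 ± 0.26 in βgal livers (adjusted p = 0.064) and 0.38 ± 0.26 in A20 livers (adjusted p = 0.53). Cth gave 1827 and 3439 in pre-βgal, 2005 and 1865 in post-βgal, 3422 and 3816 in pre-A20, and 3607 and 5451 in post-A20. Cth was higher with A20 in the average over both times by 0.86 ± 0.21, or 1.81-fold (adjusted p = 0.0448), although its pre-βgal arrays were far apart. Agxt, the peroxisomal alanine-glyoxylate aminotransferase, passed no test.

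Of the remaining enzymes, proline dehydrogenase Prodh had the largest A20 difference after resection among the 36. Prodh gave 1189 and 859 in pre-βgal, 534 and 433 in post-βgal, 1131 and 1235 in pre-A20, and 1053 and 1602 in post-A20. It was higher with A20 by 1.40 ± 0.25, or 2.65-fold (adjusted p = 0.0413), and its resection difference in βgal livers was -1.05 ± 0.25 (adjusted p = 0.0551). Hal, histidine ammonia-lyase, gave 1271 and 1534 in pre-βgal, 1034 and 700 in post-βgal, 1789 and 1891 in pre-A20, and 1573 and 2016 in post-A20. All 4 A20 arrays exceeded all 4 βgal arrays, and Hal was higher with A20 on average by 0.72 ± 0.16 (adjusted p = 0.0343). Uroc1, urocanase, the next step of histidine breakdown, had an average A20 difference of -0.17 ± 0.16 (adjusted p = 0.512). Its second probe set gave 0.11, so the sign depends on the probe set.

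Got1, the cytosolic aspartate aminotransferase, also works in gluconeogenesis and the malate-aspartate shuttle. It gave 797 and 2710 in pre-βgal, 3010 and 4089 in post-βgal, 1435 and 1110 in pre-A20, and 4717 and 6882 in post-A20. All 4 post-resection arrays exceeded all 4 earlier ones. Got1 rose on average by 1.70 ± 0.34, or 3.25-fold (adjusted p = 0.024), and was the 1 enzyme of the set that rose with resection. Aass, which starts lysine breakdown, gave 581 and 1456 in pre-βgal, 2666 and 2791 in post-βgal, 1806 and 2185 in pre-A20, and 2261 and 3738 in post-A20. It had the next largest average resection difference, 1.05 ± 0.28 (adjusted p = 0.0677). For both Got1 and Aass the pre-βgal arrays differed by over 1 log2 unit, in the group with the uneven RNA quality described above.

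**Figure D3:**
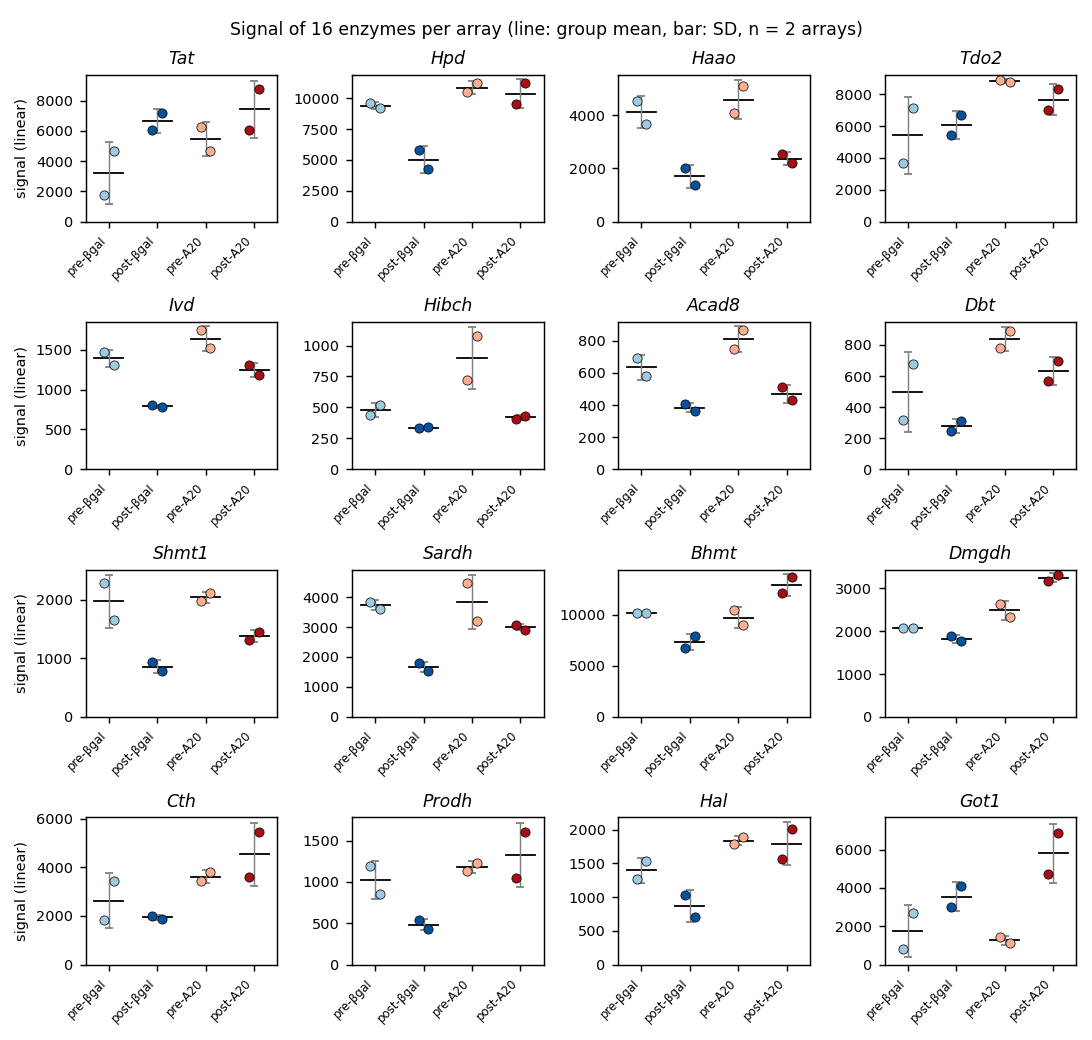
Linear signal (y axis) of 16 enzymes in each array by group (x axis); points are arrays, lines group means and bars SD, n = 2 arrays a group. Haao, Acad8 and Shmt1 are lower after resection with both viruses, Hpd, Bhmt and Prodh are lowest in post-βgal, and Got1 is higher after resection with both viruses.

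Averaged over both times, 34 of 36 enzymes were higher with A20 (49.7% of all genes were; median 0.42 against 0.00 over all genes), the exceptions being Gldc and Uroc1. The second Uroc1 probe set lay above 0, at 0.11. The test was passed by 10, all higher, beside 3.39% of all genes called higher and 5.2% lower. These were Hpd (0.63 ± 0.12), Dbt, Hibch (0.58 ± 0.14), Pccb, Gcsh, Dmgdh (0.54 ± 0.11), Cth, Bhmt (0.37 ± 0.09), Prodh (0.81 ± 0.17) and Hal, so that each of the 4 pathway groups had at least 1. In Hal, Pccb, Gcsh and Dmgdh all A20 arrays exceeded all βgal arrays, against 5.7% of all genes, and in 0 enzymes all were lower, against 5.26%. With 1 array left out, these 10 differences kept their sign and ran from 0.32 (Bhmt) to 1.25 (Dbt). Each of the 10 calls was lost in at least 1 of these fits, where the share of all genes called changed too.

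Averaged over both viruses, 29 of 36 enzymes were lower after resection (median -0.35 against -0.01), and 47.1% of all genes were higher. The 8 that fell were Hpd (-0.49 ± 0.12), Haao, Ivd, Mccc1, Hibch (-0.76 ± 0.14), Acad8, Shmt1 and Sardh (-0.75 ± 0.14), and Got1 rose, beside 2.52% of all genes called lower and 3.62% higher. Of the 8, 4 belonged to the branched chain group, which holds 13 of the 36 enzymes. Among these 4, the sign for Mccc1 depended on the probe set. All post-resection arrays lay below all earlier ones for 9 enzymes and above for 2 (Aass and Got1), against 3.99% and 4.5% of all genes. In total 9 enzymes were called. With 1 array left out, the 8 falls ran from -1.25 (Haao) to -0.38 (Hpd), and the rise of Got1 from 1.27 to 2.14. Each call but that of Haao was lost in at least 1 of these fits, where the share of all genes called changed too.

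Whether resection acted differently with A20 was tested as the interaction, the resection difference in A20 livers minus that in βgal livers. By limma 0 of 36 enzymes passed, 9 had an unadjusted p under 0.05 (17.3% of all genes did), and 2 met the criterion of a lower interval end of at least 1.5-fold. That criterion was applied to the enzymes only, so no share of all genes stands beside it. Only 5 of all genes passed (0.0281%). The interaction was above 0 for 24 of 36 enzymes, against 56.9% of all genes, with a median of 0.33. By group its median was 0.64 in glycine and sulfur, with 9 of 10 above 0, and -0.02 in branched chain. The smallest adjusted p-values were those of Bhmt (0.88 ± 0.19, adjusted p = 0.148), Gldc (1.14 ± 0.27, 0.152), Cbs (1.43 ± 0.37, 0.158), Acadsb (0.167) and Hpd (0.85 ± 0.23, 0.17). A difference between the viruses in the resection response was therefore not shown for any single enzyme, and the enzymes called in βgal livers alone are not shown to respond to resection with that virus alone.

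**Figure D4:**
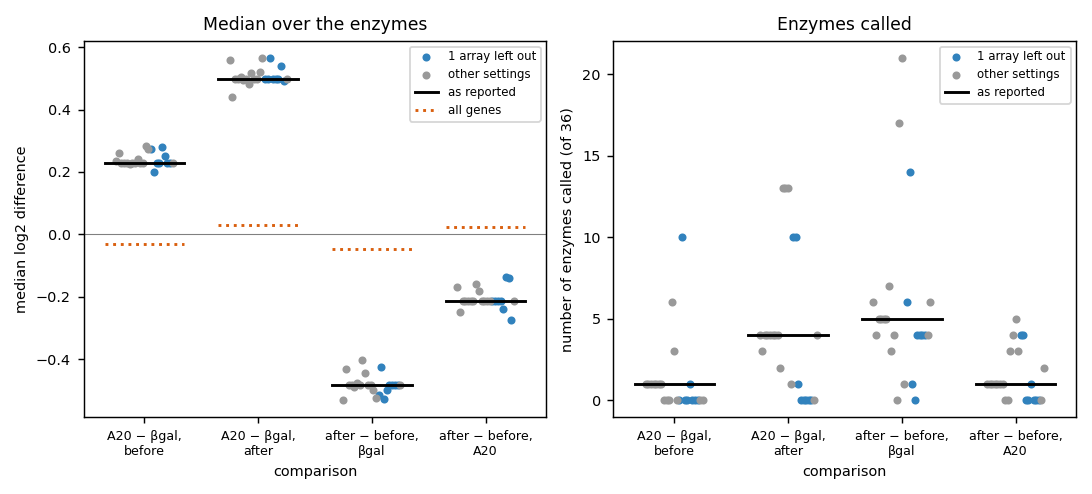
Median log2 difference over the 36 enzymes (left, y axis) and number of enzymes called (right, y axis) in the 4 two-group comparisons (x axis), as analysed (black line), with 1 array left out (blue) and under other settings (grey); the dotted line is the median of all genes. The medians keep their sign under every setting, whereas the counts run from 0 to 21 for resection in βgal livers.

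Other enzymes of amino acid breakdown outside the set had medians of the same sign. Of 48 such genes 42 were tested, with median differences of 0.26 and 0.35 for A20 against βgal before and after resection, and -0.43 and -0.27 for resection in βgal and in A20 livers. Aadat, which acts on kynurenine and aminoadipate, was called before resection (0.79 ± 0.17, adjusted p = 0.0402), and Suox, sulfite oxidase, after it (0.99 ± 0.16, adjusted p = 0.0353), both higher with A20. Of all genes, 1.31% and 0.512% were called higher in these comparisons. With resection in βgal livers Csad of the taurine route, Suox, Srr and Amdhd1 fell and Gpt2, the mitochondrial alanine aminotransferase, rose. Beside these, 1.51% of all genes were called lower and 2.48% higher. Csad also fell in A20 livers, beside 0.793% of all genes called lower.

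Csad had the lowest resection values of that list. It gave 4000 and 3830 in pre-βgal, 1201 and 1185 in post-βgal, 3614 and 2754 in pre-A20, and 1321 and 936 in post-A20, and fell by 1.70 in βgal and 1.49 in A20 livers (adjusted p = 0.00777 and 0.0146). Gpt2 rose by 1.55 ± 0.24 in βgal livers (adjusted p = 0.0159), from 1808 and 3035 to 6773 and 7040. Of these 42 enzymes, 8 fell and Gpt2 rose in the average over both viruses, beside 2.52% and 3.62% of all genes.

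In the average over both times, 9 of these 42 enzymes were higher with A20 and 1 was lower, beside 3.39% and 5.2% of all genes. The single lower gene was Bckdk, the kinase that inactivates the branched chain dehydrogenase, at -0.62 ± 0.15 (adjusted p = 0.0442). Ppm1k, the phosphatase that activates it, was higher by 0.92 ± 0.16 (adjusted p = 0.0171). The others were Oat, ornithine aminotransferase, at 1.27 ± 0.25 (adjusted p = 0.0251), Gstz1, Aadat, Aldh6a1, Gcdh, Suox, Aldh4a1 and Amdhd1. Aldh4a1, at 0.93 ± 0.21 (adjusted p = 0.0343), takes the proline step after Prodh.

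Where an enzyme had several probe sets, they mostly shared a direction. Of 15 such enzymes, the probe sets had 1 sign in 11 for A20 before, A20 after and resection in βgal livers, and in 9 for resection in A20 livers. In the fit of all probe sets, 2 of 59 enzyme probe sets fell with resection in βgal livers, where 1.11% of all were called in either direction. For A20 before, A20 after and resection in A20 livers 0 passed, beside 1.83%, 0.283% and 0.546% of all probe sets. Mccc1 and Auh were the 2 enzymes with probe sets of opposite direction at unadjusted p under 0.05. In the same fit, Tdo2, Ivd, Hibch, Acad8, Shmt1 and Sardh each had a probe set called and another not called in at least 1 comparison.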

How the data were processed

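Signals of 8 arrays were used as deposited. Per the study's methods the authors computed model-based expression with dChip from perfect-match probes after invariant-set normalisation, whereas the sample records name MAS5; which of them made the deposited intensity values is not given. Array medians were 153 to 166, and of 45101 probe sets 34945 had 1 symbol, 932 several, 9160 none and 64 were controls. Probe sets with a mean of at least 40 in 1 group were kept (42703), the brightest stood for each gene (17790), and log2(signal + 16) was fitted with limma 3.58.1 (trend, two-sided, Benjamini-Hochberg, 4 residual degrees of freedom) in R 4.3.3, with 1 mean per group and 7 contrasts, tested on simulated data. The number of arrays (2 a group) limits the precision. Named with full values were the enzymes called in any comparison, the 5 with the smallest interaction p and the first or rate-limiting enzyme of a pathway (Tat, Tdo2, Bckdha, Gldc, Cbs and Hal). The enzymes, other gene lists, cell markers (fixed lists) and tests were chosen with earlier results of these data known. Alternatives were scaling, filter, offset, variance model, probe-set choice, arrays in the fit, RNA quality, replicate block, an interval criterion and, added after seeing the data, moderation over all probe sets.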

Additional observations from a re-analysis of the deposited data

How the results depend on the processing

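Counts below are enzymes called, in the order A20 against βgal before and after resection, resection in βgal and in A20 livers, the A20 average, the resection average and the interaction; as analysed they were 1, 4, 5, 1, 10, 9 and 0. Scaling by quantile gave 1, 4, 6, 1, 10, 11 and 0, beside 4.2%, 1.15%, 3.45%, 2.1%, 7.59%, 5.93% and 0.0394% of all genes. Scaling by array median gave 1, 3, 4, 1, 8, 8 and 0, beside 3.96%, 1.4%, 3.82%, 1.69%, 8.12%, 5.61% and 0.0281%. The mean of probe sets gave 0, 4, 3, 0, 8, 7 and 0, beside 3.6%, 1.48%, 3.59%, 1.55%, 7.67%, 5.63% and 0.0225% of all genes. The first probe set gave 0, 2, 4, 0, 5, 5 and 0, beside 2.63%, 0.927%, 2.57%, 1.18%, 5.95%, 4.87% and 0%. Only the 4 arrays compared gave 0, 13, 0 and 3, beside 1.64%, 6.28%, 0.438% and 3.34% of all genes. The interval criterion, applied to the enzymes only and so without a share of all genes, gave 0, 4, 6, 2, 0, 3 and 2. Actb ratio as covariate gave 3, 13, 21, 5, 12, 20 and 1 (7.31%, 4.64%, 15%, 6.67%, 8.5%, 14.1% and 1.52% of all genes). Moderation over all probe sets, chosen after seeing the data, gave 0, 0, 4, 0, 5, 8 and 0. The shares of all genes were 2.5%, 0.332%, 2.25%, 1.01%, 5.39%, 4.76% and 0%. The fit without replicate 1 of both βgal groups, with 1 array left in each, is given with the RNA quality above. No trend gave 7 for resection in βgal livers, beside 3.5% of all genes. Filter and offset settings kept each count within 1.5 times. The replicate block gave 6, 13, 17, 4, 20, 20 and 0, beside 13.5%, 7.89%, 11.8%, 5.36%, 18.7%, 11.7% and 1.47% of all genes; numbers do not show shared mice, and same-numbered deviations correlated at 0.617 in βgal and -0.02 in A20 livers. With 1 array left out the counts ran from 0 to 10, 0 to 10, 0 to 14, 0 to 4, 0 to 17, 1 to 15 and 0 to 0. Medians kept their sign in every alternative; with 1 array left out the resection average ran from -0.45 to -0.26 and the interaction from 0.22 to 0.46. Of the named enzymes' values under alternatives, 521 kept their direction and side of the threshold, 223 lost the call, 1 gained it and 1, the Mccc1 resection average as a mean of probe sets, reversed to 0.0154 because its second probe set is 0.54. The 521 include values of the 5 named interaction results, which were not called as analysed, so that keeping their side meant staying uncalled. The cause of the other changes was not tested.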

Other observations

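Regulators of these enzymes and marker lists were read from the same fit. Of 15 regulators 14 were tested. In the average over both times 2 were called higher with A20 and 0 lower, beside 3.39% and 5.2% of all genes. With resection on average 2 rose and 2 fell, beside 3.62% and 2.52% of all genes. Klf15, a glucocorticoid-induced activator of amino acid breakdown genes, gave 584 and 925 in pre-βgal, 486 and 485 in post-βgal, 1718 and 1645 in pre-A20, and 802 and 926 in post-A20. It was higher with A20 before resection (1.18 ± 0.22, adjusted p = 0.0292), and fell by 0.77 with resection on average (SE 0.16, adjusted p = 0.0244). Fkbp5, a glucocorticoid target, rose with resection in βgal (1.13 ± 0.20, adjusted p = 0.0253) and A20 livers (1.34 ± 0.20, adjusted p = 0.0186). Ppara was higher with A20 on average (1.24 ± 0.22, adjusted p = 0.0177). Cebpa fell (-1.20 ± 0.18, adjusted p = 0.00805) and Ppargc1a rose (0.91 ± 0.14, adjusted p = 0.00857) with resection on average.

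Of hepatocyte zone markers, 6 of 8 periportal and all 8 perivenous genes were tested, and 2 and 3 were higher with A20 on average, with 0 lower, beside 3.39% and 5.2% of all genes. Hal counts among the periportal markers and Oat among the perivenous ones. With resection on average, 0 rose and 1 periportal and 2 perivenous markers fell, beside 3.62% and 2.52% of all genes. Summed signals over the arrays ran from 2226 to 3055 for 5 sinusoidal endothelium, 3257 to 5093 for 5 stellate cell, 1052 to 1414 for 4 bile duct, 1560 to 2050 for 5 T and NK cell and 279 to 331 for 3 B cell markers. The part of these in the enzyme results was not tested.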
